A study of Mus musculus with 18 samples.

Results

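The genes described here are 10 targets of the transcription factor p53, namely Cdkn1a, Mdm2, Ccng1, Eda2r, Plk2, Bbc3, Bax, Sesn1, Trp53inp1 and Phlda3. They were taken by symbol from a list of known targets, chosen with earlier results of these data known. Each matched 1 Ensembl gene, and they are 10 of the 37224 genes counted. The series is an RNA sequencing study of Hoxb1, a homeodomain factor of the anterior Hox genes, in cells made from mouse embryonic stem cells of strain C57BL/6. There were 6 groups of 3 libraries each. The neuromesodermal progenitors (NMPs, cells that can form spinal cord and paraxial mesoderm) were Hoxb1 null or wild type, both differentiated without any further agent in the labels. Neural progenitors were grown in 4 ways: with Hoxb1 and SAG, with SAG alone, with Hoxb1 alone, or with neither. SAG is an agonist of Smoothened, which activates hedgehog signalling. Cultures labelled as expressing Hoxb1 also received doxycycline (DOX), and those labelled as not expressing it did not, so an effect of Hoxb1 cannot be told apart from one of the drug. The labels name no cell line or clone for any group, and they do not say whether the 3 libraries of a group came from separate cultures. The p-values measure the spread between these libraries, which may be technical.

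p53 is a sequence-specific transcription factor that is stabilised by DNA damage and other stresses. Mdm2, itself a p53 target, is the ubiquitin ligase that marks p53 for degradation, which closes a feedback loop, and Mdm4 is a related protein that holds p53 inactive. Other targets stop the cell cycle, promote apoptosis, or adjust metabolism and survival signalling. In the mouse embryo, loss of Mdm2 is lethal unless p53 is lost as well, and some embryos without p53 fail to close the neural tube.

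p53 binds as a tetramer to a pair of 10-base units, and the promoter windows of 9 of the 10 genes were searched for them. Trp53inp1 had no window in the table used. The sequences are RefSeq's for GRCm38.p6, the mouse build also named mm10. An exact match to the p53 unit was found in windows of Cdkn1a, Ccng1, Mdm2, Bax and Sesn1. Over all windows of 300 bases in that table, 8.36% held an exact unit, and 9.55% of genes had one in at least 1 window. A pair of units, each with at most 1 mismatch and separated by 0 to 13 bases, stood in 2.71% of windows and in 3.09% of genes. The unit's consensus is the same on both strands, so 1 search covers both. In Cdkn1a and Ccng1 the window held such a pair with no bases between its units and 1 mismatch in all, and these are shown because they are the only members with a pair. The Cdkn1a window lies at chr17:29090729-29090978 on the plus strand, just upstream of the gene's first annotated start. Its pair begins 51 bases before that start. The window of a downstream start of Cdkn1a, at chr17:29093519-29093768, held neither an exact unit nor a pair. The Ccng1 stretch lies at chr11:40755312-40755536 on the minus strand, upstream of the annotated gene. Its pair begins 195 bases before the start that RefSeq gives. Capitals mark the units of the pair, and in Cdkn1a also another exact unit upstream. That unit and the first unit of the pair are close enough to be counted as a pair as well, so this window held 2 pairs.
Cdkn1a: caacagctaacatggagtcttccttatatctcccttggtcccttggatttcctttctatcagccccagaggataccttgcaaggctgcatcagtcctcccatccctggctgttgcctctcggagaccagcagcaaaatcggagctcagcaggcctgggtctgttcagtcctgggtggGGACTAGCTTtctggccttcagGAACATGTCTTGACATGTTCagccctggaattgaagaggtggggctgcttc
Ccng1: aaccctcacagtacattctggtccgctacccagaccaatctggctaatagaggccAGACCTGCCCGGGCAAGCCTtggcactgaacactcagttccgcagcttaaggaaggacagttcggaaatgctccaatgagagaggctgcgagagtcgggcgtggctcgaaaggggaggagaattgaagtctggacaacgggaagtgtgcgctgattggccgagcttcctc

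The other 3 exact units had no partner, and they are shown with 10 bases on each side and the unit in capitals. The Mdm2 stretch is at chr10:117710925-117710954 on the minus strand, the Bax stretch at chr7:45467080-45467109 on the minus strand, and the Sesn1 stretch at chr10:41887256-41887285 on the plus strand, in the window of its downstream start.
Mdm2: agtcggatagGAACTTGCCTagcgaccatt
Bax: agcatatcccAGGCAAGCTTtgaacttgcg
Sesn1: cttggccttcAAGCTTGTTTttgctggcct

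The windows of Eda2r, Plk2, Bbc3 and Phlda3, the downstream window of Cdkn1a and the upstream window of Sesn1 held no exact unit. These matches are letters in a window and no measure of binding. All 10 are protein-coding in the GENCODE vM21 annotation. No exon of theirs overlaps an exon of another counted gene. Their mm10 positions below are those deposited with the counts.

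Libraries held 13301476 to 26974315 counts, and the set with SAG was the deepest. Labels give library numbers 2533 to 2538 for neural progenitors with SAG, 7390 to 7395 for those without, and 8085 to 8090 for NMPs, so SAG and the library set cannot be told apart. Levels are given as CPM, read counts scaled to a common library size with TMM factors over all 18 libraries. Hoxb1 stood at 15.3 ± 0.844 CPM in Hoxb1-null NMPs and 254 ± 16.1 CPM in wild-type NMPs (SD, n = 3 each). It was 592 ± 21.2 CPM with Hoxb1 and SAG against 0.459 ± 0.0662 CPM with SAG, and 323 ± 16.05 CPM with Hoxb1 against 0.358 ± 0.288 CPM with neither. Summed NMP markers (T, Tbx6, Cdx2 and 7 others) were 1852 to 2318 CPM in NMPs and 14.1 to 80.0 CPM in neural progenitors. Summed neural progenitor markers (Sox1, Pax6, Sox2 and 7 others) were 1675 to 3095 CPM in neural progenitors and 517 to 565 CPM in NMPs. Library 3 of the Hoxb1-null NMPs stood apart from the other 2 of its group, since its counts differed from theirs by a chi-square of 5.07 and 3.93 per gene, and theirs from each other by 2.33. Library 1 with Hoxb1 and SAG did so less, at 3.72 and 2.43. Among the NMPs no marker of the 7 cell type lists was at 0 in a whole group, while Cdx1 was at 0 in both groups with Hoxb1, Cdx4 in neural progenitors with neither, and the endoderm gene Afp in those 3 groups.

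All 10 genes were expressed in every library and passed the filter on low counts in every fit. Compared per length as RPKM (CPM per kilobase of exon), the neural progenitors with neither Hoxb1 nor SAG had 218 of Ccng1, 159 of Cdkn1a and 119 of Bax as group means. Phlda3 followed at 51.6 RPKM and Bbc3 at 36.0. Trp53inp1, Eda2r, Mdm2 and Plk2 lay close together at 29.7, 26.2, 23.9 and 23.7 RPKM, and Sesn1 was lowest at 9.09. In wild-type NMPs the highest were Bax at 199.9 and Cdkn1a at 166 RPKM, while Ccng1 had 91.6, Mdm2 46.5 and Eda2r 7.91 RPKM.

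Across the 6 groups the members did not share 1 order. Hoxb1-null NMPs had the highest mean of Cdkn1a, Mdm2, Plk2, Bax and Phlda3, and neural progenitors with Hoxb1 alone had the highest of Ccng1, Eda2r and Sesn1. Trp53inp1 was highest with Hoxb1 and SAG, and Bbc3 with neither. The lowest means of Cdkn1a, Mdm2 and Bbc3 were those of neural progenitors with SAG alone, and the lowest of Plk2, Bax and Trp53inp1 were those with neither. Eda2r ranged most, 3.80-fold between its highest and lowest group means. Mdm2 ranged 3.02-fold and Ccng1 2.95-fold. Cdkn1a ranged 1.51-fold. In Cdkn1a, 5 of the 6 groups formed a run in which each overlapped the next, at 388, 370.0, 365, 360.5 and 354 CPM, and SAG alone stood below them at 257 CPM.

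**Figure D1:**
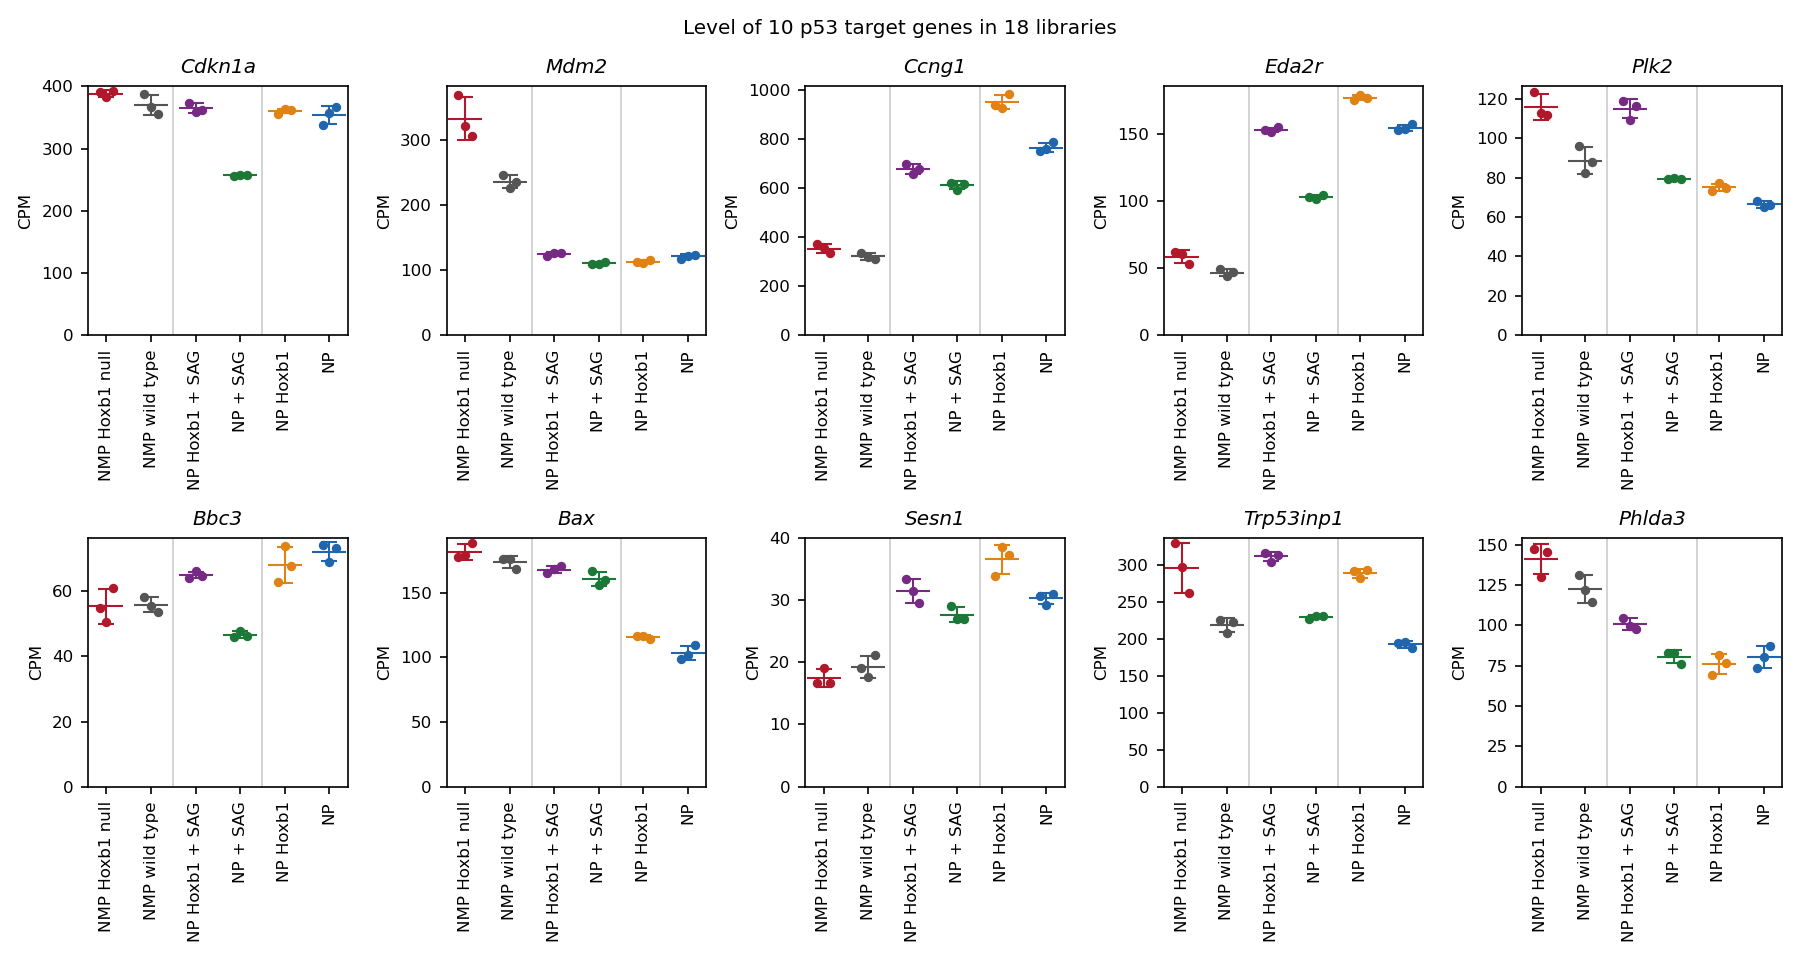
Level of each of the 10 genes in CPM (linear axis from 0) in the 18 libraries, with 1 panel per gene. Points are libraries, bars are the mean and SD of 3 libraries, and grey lines part the NMPs, the neural progenitors (NP) with SAG and those without. Cdkn1a is lowest with SAG alone, Mdm2 is highest in the NMPs, and Ccng1 and Eda2r are higher in every neural progenitor group than in the NMPs.

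In neural progenitors kept in SAG, Hoxb1 went with higher levels of 9 of the 10 genes, and Bax did not pass the test. A gene was called at an edgeR adjusted p under 0.05, and 43.4% of the 16238 genes tested were called in either direction, 21.4% higher and 21.9% lower. The 9 rises were between 1.11-fold for Ccng1 and 1.49-fold for Eda2r. The median log2 change of the 10 was 0.38, beside 0.0012 for all genes. In bulk RNA, fewer cells of a type and less RNA per cell cannot be told apart.

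Markers of cell types moved with the same comparison. With Hoxb1 and SAG, 8 of 10 neural progenitor markers fell (1675 to 1724 CPM in sum with Hoxb1 and SAG and 2158 to 2246 CPM with SAG), and 4 of 8 neuron markers rose and 2 fell (1330 to 1387 CPM with Hoxb1 and SAG and 917 to 946 CPM with SAG). Of 8 mesenchyme markers 5 rose and 1 fell. Their sums overlapped, at 2172 to 2378 CPM with Hoxb1 and SAG and 2175 to 2210 CPM with SAG. Of 7 ventral midline markers, Foxa2 and Shh among them, 3 rose and 2 fell. These markers summed to 1365 to 1366 CPM with Hoxb1 and SAG and 1149 to 1167 CPM with SAG. The part of these cells in the changes of the 10 genes was not tested.

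Of the genes that act on the cell cycle, Cdkn1a (chr17:29090979-29100722, plus strand) encodes p21, an inhibitor of cyclin-dependent kinases. It had 373, 358 and 363 CPM in the libraries with Hoxb1 and SAG, against 256, 258 and 258 CPM in those with SAG (log2 change 0.51, SE 0.030, adjusted p = 5.11e-18). The lowest library with Hoxb1 was far above the highest without, and the SAG libraries differed little among themselves. Plk2 (chr13:110395044-110400844, plus strand), a polo-like kinase of the G1 phase and of centriole duplication, had 119, 109 and 116 CPM with Hoxb1 and SAG, against 79.4, 79.6 and 79.3 CPM with SAG (log2 change 0.54, SE 0.035, adjusted p = 1.38e-16). These groups were also well separated, with the spread mainly on the Hoxb1 side. Ccng1 (chr11:40748552-40755311, minus strand), cyclin G1, which recruits a phosphatase to Mdm2, rose least: it had 698, 655 and 677 CPM with Hoxb1 and SAG, against 622, 592 and 618 CPM with SAG (log2 change 0.15, SE 0.030, adjusted p = 4.69e-05). Its groups came close without overlapping. Mdm2 (chr10:117688888-117710758, minus strand), the ligase of the feedback loop, had 122, 125 and 127 CPM with Hoxb1 and SAG, against 109, 109 and 112 CPM with SAG (log2 change 0.19, SE 0.033, adjusted p = 8.79e-06), again without overlap.

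Among the genes of cell death, Bbc3 (chr7:16309616-16318205, plus strand) encodes PUMA, a BH3-only activator of apoptosis. It had 64.2, 66.1 and 64.6 CPM with Hoxb1 and SAG, against 45.9, 47.9 and 46.3 CPM with SAG (log2 change 0.48, SE 0.045, adjusted p = 5.66e-12), and all 3 libraries with Hoxb1 were above all 3 without. Eda2r (chrX:97333840-97377216, minus strand), the receptor of ectodysplasin A2, had 153, 151 and 155 CPM with Hoxb1 and SAG, against 103, 101 and 104 CPM with SAG (log2 change 0.58, SE 0.031, adjusted p = 1.85e-19). It was the largest rise of the 10, and the libraries within each group lay within a few CPM of each other. Bax (chr7:45461695-45466898, minus strand), which forms pores in the mitochondrial outer membrane, had 165, 168 and 171 CPM with Hoxb1 and SAG, against 167, 156 and 159.7 CPM with SAG, and its groups overlapped (log2 change 0.068, SE 0.033, adjusted p = 0.0939). Without library 1 of the SAG group, Bax passed the test at an adjusted p of 0.0447.

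Phlda3 (chr1:135766119-135769136, plus strand), a PH-domain protein that restrains AKT, had 105, 99.6 and 97.4 CPM with Hoxb1 and SAG, against 82.8, 82.7 and 75.9 CPM with SAG (log2 change 0.33, SE 0.053, adjusted p = 3.89e-05). Trp53inp1 (chr4:11156431-11174379, plus strand), a stress-induced nuclear protein that takes part in p53 phosphorylation and autophagy, had 316, 304 and 314 CPM with Hoxb1 and SAG, against 227, 231 and 231 CPM with SAG (log2 change 0.44, SE 0.029, adjusted p = 1.51e-16). Both genes separated the groups fully. Sesn1 (chr10:41810574-41908424, plus strand), a sestrin that restrains mTORC1, had 33.3, 31.4 and 29.5 CPM with Hoxb1 and SAG, against 29.0, 26.9 and 26.97 CPM with SAG (log2 change 0.19, SE 0.055, adjusted p = 0.00405). Its groups nearly touched. Without library 1 with Hoxb1 and SAG, 9 of the 10 genes were called higher as well. The libraries of 9 members did not overlap between the groups, which was the case for 50.0% of all tested genes. Trp53 itself had 189.7 ± 4.28 CPM with Hoxb1 and SAG and 193 ± 3.82 CPM with SAG and was not called (log2 change -0.020, SE 0.031, adjusted p = 0.639). Mdm4 rose (95.2 ± 8.25 CPM against 74.9 ± 8.002 CPM, log2 change 0.35, SE 0.092, adjusted p = 0.0132), a call that was lost when only these 2 groups were fitted (adjusted p = 0.0564).

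Without SAG, Hoxb1 went with higher levels of 6 of the 10 genes, Ccng1, Eda2r, Plk2, Bax, Sesn1 and Trp53inp1, and with a small fall of Mdm2. Cdkn1a, Bbc3 and Phlda3 did not pass the test. Among all 16238 genes tested 46.2% were called, 24.1% higher and 22.1% lower. The median log2 change of the members was 0.18, beside 0.0031 for all genes. With Hoxb1 alone all 8 neuron markers rose (2286 to 2431 CPM in sum with Hoxb1 and 1548 to 1622 CPM with neither), and all 8 pluripotent cell markers fell (147 to 172 CPM with Hoxb1 and 288 to 327 CPM with neither). Of 8 mesenchyme markers only 4 rose and 1 fell, while their sum was 956 to 989 CPM with Hoxb1 and 451 to 479 CPM with neither. Of 7 ventral midline markers 1 rose and 6 fell (353 to 361 CPM with Hoxb1 and 491 to 562 CPM with neither). Of 10 neural progenitor markers 4 rose and 6 fell (2746 to 2792 CPM with Hoxb1 and 2930 to 3095 CPM with neither). The part of all these cells in the changes below was not tested.

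Trp53inp1 changed most, with 291, 281 and 292 CPM with Hoxb1, against 195, 196 and 187 CPM with neither Hoxb1 nor SAG (log2 change 0.59, SE 0.032, adjusted p = 1.23e-19), a 1.51-fold rise with a wide gap between the groups. Ccng1 had 939.9, 927 and 982 CPM with Hoxb1, against 749.9, 759 and 785 CPM with neither (log2 change 0.32, SE 0.030, adjusted p = 6.3e-12). Its 3 libraries with Hoxb1 held the most Ccng1 of all 18. Sesn1 had 33.8, 38.4 and 37.2 CPM with Hoxb1, against 30.7, 29.2 and 30.9 CPM with neither (log2 change 0.28, SE 0.063, adjusted p = 0.000313), with more spread on the Hoxb1 side. Eda2r averaged 177 ± 1.87 CPM with Hoxb1 and 155 ± 2.43 CPM with neither (log2 change 0.20, SE 0.033, adjusted p = 1.36e-06). Plk2 averaged 75.0 ± 1.84 CPM with Hoxb1 and 66.3 ± 1.60 CPM with neither (log2 change 0.19, SE 0.043, adjusted p = 0.000429), and Bax 116 ± 1.36 CPM with Hoxb1 and 103 ± 5.35 CPM with neither (log2 change 0.18, SE 0.039, adjusted p = 0.000257). None of these 6 genes had overlapping groups, and with Mdm2 the libraries of 7 members did not overlap, against 53.5% of all genes.

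Mdm2 had 112, 111 and 115 CPM with Hoxb1, against 117, 122 and 123 CPM with neither (log2 change -0.091, SE 0.036, adjusted p = 0.0371). The groups did not overlap, but the gap was small beside the level. This call was lost with DESeq2 (adjusted p = 0.0752), with no filter on low counts (0.0809) and with all 18 libraries in 1 fit (0.104). It was also lost without library 2 or 3 of the group with neither (0.0739 and 0.137) or without library 1 or 2 of the group with Hoxb1 (0.0913 and 0.0950). Cdkn1a had 356, 363 and 362 CPM with Hoxb1, against 338, 358 and 367 CPM with neither, and the Hoxb1 libraries lay within the range of the others (log2 change 0.035, SE 0.031, adjusted p = 0.379). Bbc3 averaged 68.2 ± 5.55 CPM with Hoxb1 and 72.2 ± 2.89 CPM with neither (log2 change -0.075, SE 0.049, adjusted p = 0.219), and Phlda3 75.7 ± 6.16 CPM with Hoxb1 and 80.4 ± 6.68 CPM with neither (log2 change -0.079, SE 0.062, adjusted p = 0.323). Both overlapped. Each passed the test as lower when 1 library was left out, Bbc3 without library 2 with Hoxb1 (adjusted p = 0.0246) and Phlda3 without library 1 with neither (0.0444). Trp53 was not called (log2 change 0.019, SE 0.035, adjusted p = 0.692), nor was Mdm4 (log2 change -0.080, SE 0.096, adjusted p = 0.544).

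**Figure D2:**
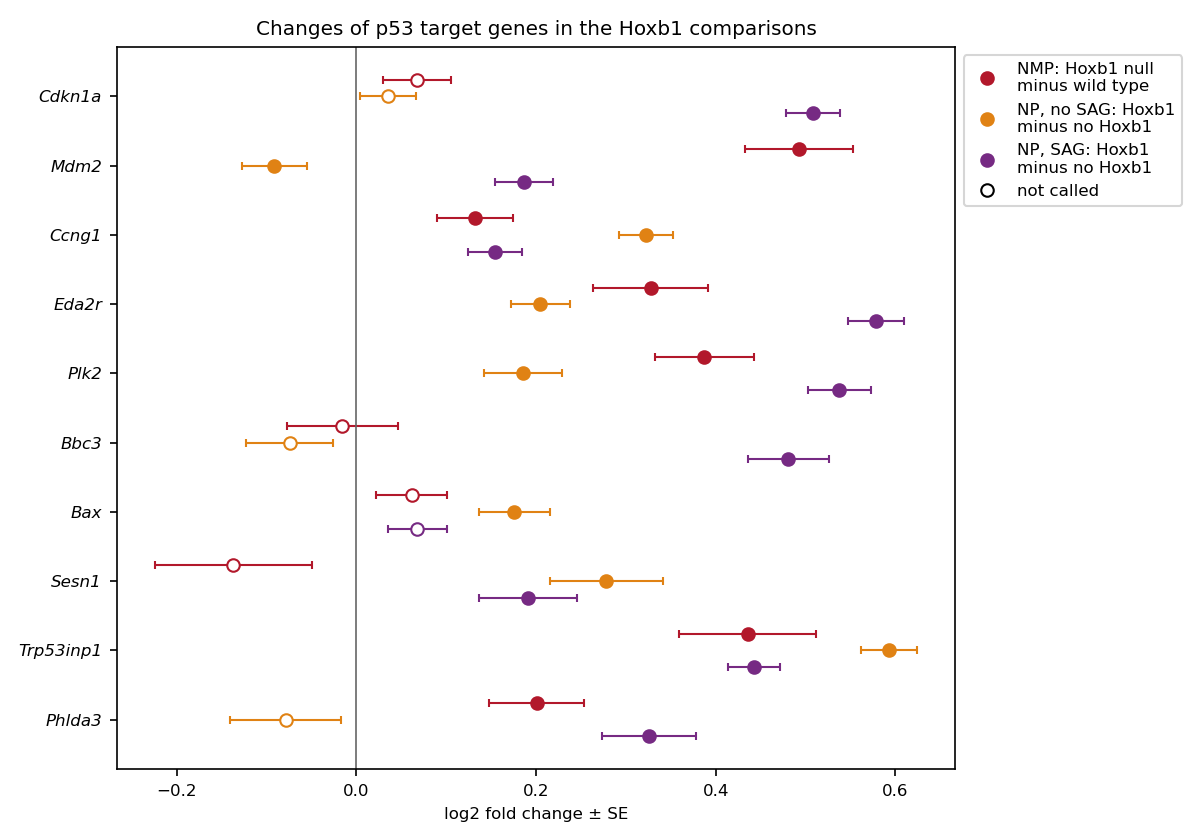
Log2 fold change (horizontal axis, bars show the SE) of the 10 genes in the Hoxb1 comparisons, n = 3 libraries per group. The colours stand for Hoxb1-null minus wild-type NMPs, Hoxb1 minus no Hoxb1 without SAG and Hoxb1 minus no Hoxb1 with SAG, and open circles did not pass the test. Cdkn1a and Bbc3 are far from 0 only for Hoxb1 with SAG, at 0.51 and 0.48, while Ccng1, Eda2r, Plk2 and Trp53inp1 are filled and above 0 in all 3 comparisons.

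The difference between the Hoxb1 effects was itself tested, as the log2 change with SAG minus the log2 change without. It passed the test as positive for 6 of the 10 genes and as negative for 2. Of all 16238 genes 35.5% passed this test, 16.8% positive and 18.6% negative. Bbc3 and Cdkn1a, neither of which passed the test without SAG, differed most, by 0.56 (SE 0.066, adjusted p = 5.46e-09) and by 0.47 (SE 0.043, adjusted p = 6.35e-12). Phlda3 differed by 0.40 (SE 0.081, adjusted p = 0.000521). The effects on Eda2r and Plk2 had the same direction in both settings and were larger with SAG, by 0.37 (SE 0.045, adjusted p = 7e-09) and by 0.35 (SE 0.056, adjusted p = 2.16e-06). For Mdm2 the difference was 0.28 (SE 0.049, adjusted p = 1.34e-05). Ccng1 and Trp53inp1 went the other way, with smaller effects with SAG and differences of -0.17 (SE 0.043, adjusted p = 0.00162) and of -0.15 (SE 0.043, adjusted p = 0.00504). The call for Trp53inp1 was lost with all 18 libraries in 1 fit (adjusted p = 0.120). Bax, at -0.11 (SE 0.051, adjusted p = 0.0986), and Sesn1, at -0.087 (SE 0.083, adjusted p = 0.451), did not pass, although Bax did without library 3 of the group with neither (0.0232). The difference for Mdm4 was 0.43 (SE 0.13, adjusted p = 0.0335), and it was lost without library 2 or 3 with Hoxb1 and SAG, library 1 or 2 with neither, or library 2 or 3 with Hoxb1 alone (adjusted p between 0.0539 and 0.0796). The level of Hoxb1 itself was 592 CPM with SAG and 323 CPM without, and its part in these differences was not tested. The library sets differ between the effects, as above.

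Seen from the side of SAG, cells without Hoxb1 had lower Cdkn1a, Mdm2, Ccng1, Eda2r and Bbc3 with SAG and higher Plk2, Bax and Trp53inp1, while Sesn1 and Phlda3 did not pass the test. Of 16238 genes 72.7% were called, 36.5% higher and 36.3% lower, in a comparison where SAG cannot be told apart from the library set, so that 8 calls among 10 genes are near that background. The libraries of 9 members did not overlap, as with 75.0% of all genes. All 8 neuron markers fell with SAG (917 to 946 CPM in sum with SAG and 1548 to 1622 CPM with neither). Of 8 mesenchyme markers 7 rose (2175 to 2210 CPM with SAG and 451 to 479 CPM with neither). Of 7 ventral midline markers 5 rose and 1 fell (1149 to 1167 CPM with SAG and 491 to 562 CPM with neither). The part of these cells was not tested. Bbc3 had 45.9, 47.9 and 46.3 CPM with SAG, against 74.3, 68.9 and 73.4 CPM with neither (log2 change -0.63, SE 0.048, adjusted p = 3.91e-15). Eda2r had 103, 101 and 104 CPM with SAG, against 153, 153 and 157 CPM with neither (log2 change -0.59, SE 0.033, adjusted p = 1.74e-19). Cdkn1a had 256, 258 and 258 CPM with SAG, against 338, 358 and 367 CPM with neither (log2 change -0.46, SE 0.031, adjusted p = 8.87e-17). In all 3 genes every SAG library was below every other library of the pair. Bax went the other way, with 167, 156 and 159.7 CPM with SAG, against 99.0, 102 and 109 CPM with neither (log2 change 0.64, SE 0.036, adjusted p = 3.76e-19), a rise that separated the groups by a wide gap. Ccng1 averaged 610.5 ± 16.05 CPM with SAG and 765 ± 18.5 CPM with neither (log2 change -0.32, SE 0.030, adjusted p = 1.78e-12). Mdm2 fell by less (log2 change -0.13, SE 0.035, adjusted p = 0.000661). Plk2 averaged 79.4 ± 0.177 CPM with SAG and 66.3 ± 1.60 CPM with neither (log2 change 0.26, SE 0.040, adjusted p = 2.77e-07), and Trp53inp1 229.9 ± 2.42 CPM with SAG and 193 ± 4.46 CPM with neither (log2 change 0.26, SE 0.031, adjusted p = 1.11e-09). Phlda3 overlapped between the groups (log2 change 0.0029, SE 0.058, adjusted p = 0.967). Sesn1, at 27.6 ± 1.18 CPM with SAG and 30.3 ± 0.886 CPM with neither, lay at the threshold (log2 change -0.13, SE 0.061, adjusted p = 0.052) and passed it without library 1 with SAG (0.0231), library 2 with neither (0.0341), any 1 library with Hoxb1 and SAG (0.0401 to 0.0497), or library 1 or 2 with Hoxb1 alone (0.0480 and 0.0385).

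In cells with Hoxb1, SAG went with higher Mdm2, Plk2, Bax, Trp53inp1 and Phlda3 and lower Ccng1, Eda2r and Sesn1, against a background of 72.2% called, 36.4% higher and 35.8% lower. The libraries of 8 members did not overlap, as with 74.8% of all genes. All 10 neural progenitor markers fell with SAG in these cells (1675 to 1724 CPM in sum with Hoxb1 and SAG and 2746 to 2792 CPM with Hoxb1) and 7 of 8 neuron markers fell (1330 to 1387 CPM with Hoxb1 and SAG and 2286 to 2431 CPM with Hoxb1). All 8 pluripotent cell markers (366 to 397 CPM with Hoxb1 and SAG and 147 to 172 CPM with Hoxb1), 7 of 8 mesenchyme markers (2172 to 2378 CPM with Hoxb1 and SAG and 956 to 989 CPM with Hoxb1) and all 7 ventral midline markers (1365 to 1366 CPM with Hoxb1 and SAG and 353 to 361 CPM with Hoxb1) rose. Their part in the changes of the 10 genes was not tested. Plk2 had 119, 109 and 116 CPM with Hoxb1 and SAG, against 73.4, 77.0 and 74.6 CPM with Hoxb1 (log2 change 0.61, SE 0.038, adjusted p = 7.74e-18). Bax had 165, 168 and 171 CPM with Hoxb1 and SAG, against 117, 117 and 114 CPM with Hoxb1 (log2 change 0.53, SE 0.036, adjusted p = 8.27e-17). Both were higher in every SAG library. Phlda3 averaged 101 ± 3.71 CPM with Hoxb1 and SAG and 75.7 ± 6.16 CPM with Hoxb1 (log2 change 0.41, SE 0.057, adjusted p = 2.39e-06). Ccng1 had 698, 655 and 677 CPM with Hoxb1 and SAG, against 939.9, 927 and 982 CPM with Hoxb1 (log2 change -0.49, SE 0.030, adjusted p = 4.25e-18), the largest fall of the 10. Eda2r averaged 153 ± 1.83 CPM with Hoxb1 and SAG and 177 ± 1.87 CPM with Hoxb1 (log2 change -0.21, SE 0.031, adjusted p = 1.12e-07), and Sesn1 31.4 ± 1.91 CPM with Hoxb1 and SAG and 36.5 ± 2.38 CPM with Hoxb1 (log2 change -0.22, SE 0.058, adjusted p = 0.000954). The rises of Mdm2 (log2 change 0.14, SE 0.035, adjusted p = 0.000348) and Trp53inp1 (log2 change 0.11, SE 0.030, adjusted p = 0.00142) were small. Cdkn1a averaged 365 ± 7.82 CPM with Hoxb1 and SAG and 360.5 ± 3.71 CPM with Hoxb1 (log2 change 0.014, SE 0.030, adjusted p = 0.682), and its groups overlapped. Bbc3 overlapped too (log2 change -0.070, SE 0.046, adjusted p = 0.173) and passed as lower only without library 1 of the Hoxb1 group (adjusted p = 0.0269). Trp53 was higher with SAG in both settings, at 189.7 ± 4.28 CPM with Hoxb1 and SAG and 158 ± 2.67 CPM with Hoxb1 (log2 change 0.26, SE 0.033, adjusted p = 5.41e-09), and at 193 ± 3.82 CPM with SAG and 157 ± 6.66 CPM with neither (log2 change 0.30, SE 0.033, adjusted p = 1.63e-10). Mdm4 was lower with SAG in cells without Hoxb1, at 74.9 ± 8.002 CPM with SAG and 125 ± 8.60 CPM with neither (log2 change -0.74, SE 0.095, adjusted p = 7.22e-05). In cells with Hoxb1 it was also lower with SAG (log2 change -0.31, SE 0.093, adjusted p = 0.0146), a call lost without library 1 with Hoxb1 alone (adjusted p = 0.0567).

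**Figure D3:**
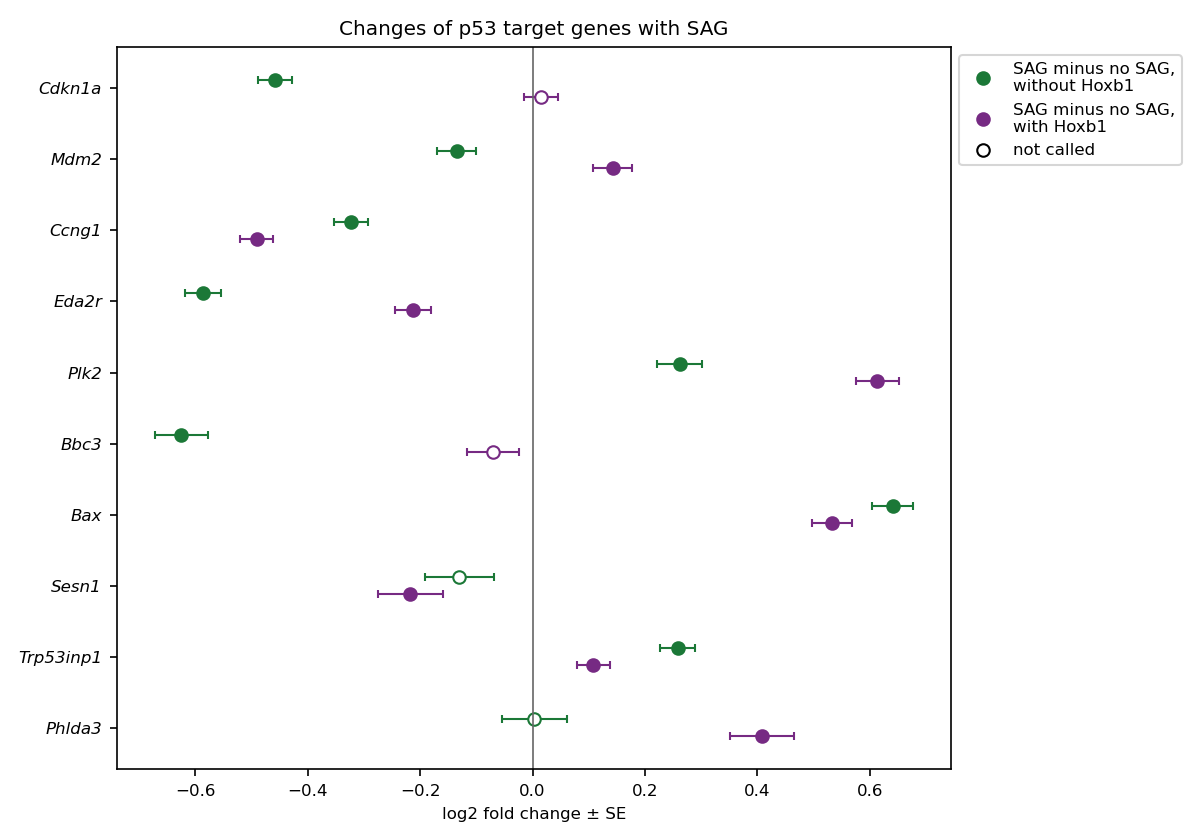
Log2 fold change (horizontal axis, bars show the SE) of the 10 genes for SAG minus no SAG in neural progenitors without Hoxb1 and with Hoxb1, n = 3 libraries per group, with open circles for genes that did not pass the test. Cdkn1a and Bbc3 lie at -0.46 and -0.63 without Hoxb1 and near 0 with it, and Bax lies at 0.64 and 0.53.

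In NMPs, where the comparison removes Hoxb1 in place of adding it, Hoxb1-null cells had higher levels of 6 of the 10 genes, Mdm2, Ccng1, Eda2r, Plk2, Trp53inp1 and Phlda3. Cdkn1a, Bbc3, Bax and Sesn1 did not pass the test. Of 15032 genes tested, 28.8% were called, 14.9% higher and 13.9% lower. The members' median log2 change was 0.17, beside -0.00013 for all genes. Of 8 pluripotent cell markers 6 rose (563 to 614 CPM in sum in null NMPs and 419 to 445 CPM in wild type), and 9 of 10 NMP markers fell. Of 5 tested endoderm markers 3 rose, and the list summed to 86.2 to 109 CPM in null NMPs and 66.0 to 70.2 CPM in wild type. The part of these cells in the changes below was not tested. Mdm2 had 369, 321 and 306 CPM in Hoxb1-null NMPs, against 246, 226 and 235 CPM in wild-type NMPs (log2 change 0.49, SE 0.060, adjusted p = 3.3e-05). This was the largest change of the 10, 1.41-fold, and library 1 of the null group was the highest of all. Trp53inp1 had 329, 297 and 262 CPM in null NMPs, against 226, 208 and 222 CPM in wild type (log2 change 0.44, SE 0.076, adjusted p = 0.00248). Its null libraries were far more spread than the wild-type ones, yet all were higher.

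Plk2 had 124, 113 and 112 CPM in null NMPs, against 95.8, 82.1 and 88.0 CPM in wild type (log2 change 0.39, SE 0.055, adjusted p = 1.36e-05). Eda2r had 61.9, 60.8 and 52.7 CPM in null NMPs, against 49.3, 43.7 and 46.7 CPM in wild type (log2 change 0.33, SE 0.064, adjusted p = 0.000525). Neither gene overlapped between the genotypes. Phlda3 had 147, 130.1 and 145 CPM in null NMPs, against 131, 122 and 114 CPM in wild type, and these overlapped by 1 library (log2 change 0.20, SE 0.053, adjusted p = 0.00607). Ccng1 had 372, 354 and 333 CPM in null NMPs, against 336, 318 and 310.2 CPM in wild type, with library 3 of the null group below library 1 of wild type (log2 change 0.13, SE 0.042, adjusted p = 0.0223).

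The calls of Ccng1 and Phlda3 were lost when some single libraries were left out. For Ccng1 this was library 2 or 3 of wild type (log2 change 0.12 and 0.11, adjusted p = 0.121 and 0.139) and library 1 or 2 of the null group (log2 change 0.091 and 0.13, adjusted p = 0.114 and 0.0682). For Phlda3 it was library 3 of wild type (log2 change 0.16, adjusted p = 0.0655) and library 3 of the null group (log2 change 0.18, adjusted p = 0.0682). Without null library 3, which stood apart from its group, 5 of the 10 genes were called higher. Cdkn1a had 391, 382 and 392 CPM in null NMPs, against 387, 367 and 355 CPM in wild type, and 1 wild-type library lay among the null ones (log2 change 0.067, SE 0.037, adjusted p = 0.189). Bax averaged 182 ± 5.83 CPM in null NMPs and 174 ± 4.46 CPM in wild type (log2 change 0.061, SE 0.040, adjusted p = 0.27), Bbc3 55.4 ± 5.32 CPM in null NMPs and 55.9 ± 2.28 CPM in wild type (log2 change -0.016, SE 0.062, adjusted p = 0.879), and Sesn1 17.5 ± 1.41 CPM in null NMPs and 19.2 ± 1.81 CPM in wild type (log2 change -0.14, SE 0.088, adjusted p = 0.26). The libraries of 5 members did not overlap, Bax among them, as in 41.8% of all tested genes. Trp53 (349.7 ± 4.77 CPM in null NMPs and 341 ± 3.83 CPM in wild type, log2 change 0.035, SE 0.035, adjusted p = 0.491) and Mdm4 (log2 change -0.026, SE 0.060, adjusted p = 0.789) were not called.

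Ccng1, Eda2r, Plk2 and Trp53inp1 were thus called higher where Hoxb1 was lost in NMPs and where it was added in neural progenitors, with and without SAG. These are 4 of the 10, and of the 14531 genes tested in all 3 comparisons 1.64% were called higher in each. The members were chosen with earlier results of these data known, so these shares are no independent test of the list. The call of Ccng1 in NMPs was lost without some single libraries, as given above. The effects in neural progenitors come from 1 fit. In the order null NMPs, Hoxb1 without SAG and Hoxb1 with SAG, the log2 changes were 0.39, 0.19 and 0.54 for Plk2. For Trp53inp1 they were 0.44, 0.59 and 0.44. For Eda2r they were 0.33, 0.20 and 0.58, and for Ccng1 0.13, 0.32 and 0.15. The Hoxb1 comparisons in NMPs and in neural progenitors share no library.

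Between the cell types, wild-type NMPs were set against neural progenitors with neither Hoxb1 nor SAG, a comparison that also runs across library sets. Of 16761 genes 86.0% were called, 42.3% higher and 43.7% lower in NMPs. Hoxb1 itself was 254 CPM in wild-type NMPs and 0.358 CPM in these neural progenitors (log2 change 9.46, SE 0.12, adjusted p = 1.7e-40). Cell type, Hoxb1 and library set therefore cannot be told apart. In this comparison 5 of the 10 genes were higher and 4 lower, and 9 did not overlap between the groups, as with 86.6% of all genes. Mdm2 had 246, 226 and 235 CPM in wild-type NMPs, against 117, 122 and 123 CPM in neural progenitors (log2 change 0.96, SE 0.047, adjusted p = 6.54e-21). Bax (0.75), Phlda3 (0.60), Plk2 (0.41) and Trp53inp1 (0.18) were higher in NMPs as well, by these log2 changes. Eda2r, with 49.3, 43.7 and 46.7 CPM in wild-type NMPs, against 153, 153 and 157 CPM in neural progenitors, fell 3.33-fold (log2 change -1.73, SE 0.046, adjusted p = 2.04e-35), and Ccng1 fell 2.38-fold (log2 change -1.25, SE 0.037, adjusted p = 2.2e-33). Sesn1 (-0.66) and Bbc3 (-0.37) were lower in NMPs too. Cdkn1a averaged 370.0 ± 16.1 CPM in wild-type NMPs and 354 ± 15.0 CPM in neural progenitors and was not called (log2 change 0.062, SE 0.035, adjusted p = 0.0883). It passed as higher without library 3 of wild-type NMPs (adjusted p = 0.0212), of null NMPs (0.0396) or of neural progenitors with neither (0.0178). Trp53 was 341 ± 3.83 CPM in wild-type NMPs and 157 ± 6.66 CPM in neural progenitors (log2 change 1.12, SE 0.035, adjusted p = 2.63e-32), while Mdm4 was lower in NMPs (log2 change -1.05, SE 0.087, adjusted p = 1.06e-08).

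Other targets of p53 were described from lists of 33 further genes, of which 32 were in the table and tested. In null NMPs 14 of the 32 rose and 6 fell. With Hoxb1 and SAG 15 rose and 5 fell, and with Hoxb1 without SAG 12 rose and 7 fell. Among all genes 14.9%, 21.4% and 24.1% were higher in these comparisons, and 13.9%, 21.9% and 22.1% were lower. Without library 2 or library 3 of wild-type NMPs, 9 of the 32 rose in null NMPs. The median log2 changes of the 32 were 0.10 in null NMPs, 0.15 with Hoxb1 and SAG and 0.078 with Hoxb1 alone, smaller than those of the 10 genes. Both the 10 and the 32 were chosen with earlier results of these data known.

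Of 8 further targets of the apoptotic arm, 6 rose in null NMPs, where 14.9% of all genes rose. Pmaip1, the BH3-only protein NOXA, had 289, 281 and 288 CPM in null NMPs, against 151, 144 and 156 CPM in wild type (log2 change 0.93, SE 0.041, adjusted p = 7.93e-14), a larger change than that of any of the 10 genes. Fas rose by less than Pmaip1 and by more than Perp. Perp, a desmosomal protein of p53-dependent death, had 114 ± 5.63 CPM in null NMPs and 82.7 ± 4.78 CPM in wild type (log2 change 0.46, SE 0.051, adjusted p = 4.86e-07). In neural progenitors, Pmaip1 was scarce, and lower with Hoxb1 and SAG, at 3.62 ± 0.496 CPM with Hoxb1 and SAG and 5.02 ± 0.240 CPM with SAG (log2 change -0.47, SE 0.12, adjusted p = 0.00214). With Hoxb1 alone, Fas rose more than Apaf1. Apaf1, the scaffold of the apoptosome, rose with Hoxb1 in both settings. It had 125 ± 2.70 CPM with Hoxb1 and SAG and 97.5 ± 2.44 CPM with SAG (log2 change 0.37, SE 0.034, adjusted p = 4.4e-12), and 109 ± 4.63 CPM with Hoxb1 and 83.6 ± 0.852 CPM with neither (log2 change 0.40, SE 0.039, adjusted p = 2.84e-11). Pidd1, a death-domain protein that acts in caspase-2 activation, had 77.3 ± 11.3 CPM with Hoxb1 and SAG and 53.5 ± 4.21 CPM with SAG (log2 change 0.54, SE 0.10, adjusted p = 0.00264). Of the 8, 5 rose and 1 fell with Hoxb1 and SAG, and 4 rose and 1 fell with Hoxb1 alone. The fall with Hoxb1 alone was lost with DESeq2, without library 3 with neither, and without library 1 or 2 with Hoxb1. Of all genes 21.4% rose and 21.9% fell with Hoxb1 and SAG, and 24.1% rose and 22.1% fell with Hoxb1 alone.

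Of 10 targets in cell cycle arrest and DNA repair, 2 rose and 4 fell in null NMPs. The count that rose was 0 without wild-type library 2 or 3 and 1 without null library 1. Sfn, 14-3-3 sigma, had 29.2 ± 2.45 CPM in null NMPs and 53.4 ± 2.88 CPM in wild type (log2 change -0.88, SE 0.065, adjusted p = 1.14e-09), and Polh, a translesion polymerase, also fell (log2 change -0.55, SE 0.091, adjusted p = 8.24e-05). With Hoxb1 and SAG 5 rose and 1 fell, among them Ercc5, a repair endonuclease (98.7 ± 3.05 CPM against 77.4 ± 2.20 CPM, log2 change 0.36, SE 0.036, adjusted p = 6.38e-11), and Polk, another translesion polymerase (log2 change 0.39, SE 0.051, adjusted p = 2.59e-08). With Hoxb1 alone 6 rose and 1 fell. The shares of all genes called in either direction were 28.8% in null NMPs, 43.4% with Hoxb1 and SAG and 46.2% with Hoxb1 alone. Btg2, an antiproliferative factor of neural precursors, had 336 ± 7.99 CPM with Hoxb1 and 254 ± 10.7 CPM with neither (log2 change 0.41, SE 0.033, adjusted p = 5.33e-14), and Gadd45a fell to 21.7 ± 0.740 CPM with Hoxb1, against 40.7 ± 4.44 CPM with neither (log2 change -0.90, SE 0.073, adjusted p = 1.75e-13).

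Of 14 targets in metabolism and other functions, 6 rose and 2 fell in null NMPs, 5 rose and 3 fell with Hoxb1 and SAG, and 2 rose and 5 fell with Hoxb1 alone. The count that fell in null NMPs was 0 without wild-type library 1 or null library 2. Among all genes 28.8%, 43.4% and 46.2% were called in these comparisons, in the same order. Sesn2, a paralogue of Sesn1 that ATF4 also induces, was higher in null NMPs and lower with Hoxb1 in neural progenitors. It had 229, 215 and 238 CPM in null NMPs, against 188, 173 and 171 CPM in wild type (log2 change 0.36, SE 0.045, adjusted p = 2.42e-06). It had 160.0, 159 and 159.6 CPM with Hoxb1 and SAG, against 235, 290.0 and 272 CPM with SAG (log2 change -0.73, SE 0.079, adjusted p = 5.45e-05), and 261, 249 and 254 CPM with Hoxb1, against 542, 607 and 629 CPM with neither (log2 change -1.21, SE 0.079, adjusted p = 1.05e-06). In both neural progenitor settings Sesn1 rose while Sesn2 fell. In null NMPs Dram1 rose most among the called genes of this list that reached 1 CPM, ahead of Ephx1 and Sesn2. Ephx1, an epoxide hydrolase, rose in null NMPs (log2 change 0.55, SE 0.11, adjusted p = 0.000828) and fell with Hoxb1 alone (log2 change -0.51, SE 0.054, adjusted p = 1.14e-10).

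The integrated stress response, in which ATF4 drives genes of amino acid supply and stress, shares Sesn2 and other genes with p53. Of its 10 listed genes, 9 rose and 1 fell in null NMPs, and that fall was not called with upper-quartile factors, DESeq2 or all 18 libraries in 1 fit, or without any 1 wild-type library or null library 2. With Hoxb1 alone all 10 fell, and with Hoxb1 and SAG 8 fell. Of all genes 14.9% rose in null NMPs, 22.1% fell with Hoxb1 alone and 21.9% fell with Hoxb1 and SAG. Trib3, a pseudokinase downstream of ATF4, had 39.4 ± 3.21 CPM in null NMPs and 15.0 ± 0.779 CPM in wild type (log2 change 1.39, SE 0.076, adjusted p = 4.16e-12). It had 5.94 ± 0.229 CPM with Hoxb1 and SAG and 17.9 ± 3.57 CPM with SAG (log2 change -1.59, SE 0.18, adjusted p = 7.78e-05), and 8.98 ± 0.299 CPM with Hoxb1 and 101 ± 11.9 CPM with neither (log2 change -3.47, SE 0.16, adjusted p = 5.18e-08). Chac1, which degrades glutathione, fell to 6.80 ± 0.560 CPM with Hoxb1 and SAG, against 43.0 ± 10.3 CPM with SAG (log2 change -2.66, SE 0.22, adjusted p = 9.67e-06). In the Hoxb1 comparisons of neural progenitors these genes and most of the 10 p53 targets thus moved in opposite directions. This was not so for SAG in cells without Hoxb1, where all 10 stress response genes fell, and 5 of the 10 targets fell and 3 rose. Of all genes 36.5% were higher and 36.3% lower with SAG there, so the calls among the targets are near that background.

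Of 12 tested regulators of p53, 2 rose and 5 fell in null NMPs, 2 rose and 3 fell with Hoxb1 and SAG, and 2 rose and 4 fell with Hoxb1 alone. In null NMPs 1 rose with DESeq2, without any 1 wild-type library, or without null library 2. Of all genes 28.8%, 43.4% and 46.2% were called in these comparisons, in the same order. The regulators called in the neural progenitors were near those shares. Trp73, a p53 family member, had 17.7, 15.6 and 17.4 CPM in null NMPs, against 9.50, 9.56 and 7.32 CPM in wild type (log2 change 0.94, SE 0.10, adjusted p = 4.32e-07). It fell to 2.11, 2.67 and 2.01 CPM with Hoxb1, against 12.3, 8.48 and 7.99 CPM with neither (log2 change -2.08, SE 0.18, adjusted p = 2.15e-11), and was also lower with Hoxb1 and SAG (log2 change -0.74, SE 0.17, adjusted p = 0.000466). Chek2, a kinase that phosphorylates p53, fell in null NMPs (40.8 ± 2.16 CPM in null NMPs and 51.0 ± 2.34 CPM in wild type, log2 change -0.32, SE 0.058, adjusted p = 0.000203). Chek1, the related kinase of the replication checkpoint, fell with Hoxb1 alone (26.3 ± 0.798 CPM with Hoxb1 and 36.4 ± 1.06 CPM with neither, log2 change -0.46, SE 0.063, adjusted p = 6.27e-08).

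Of the 12 BCL2 family genes, 2 rose and 1 fell in null NMPs, 3 rose and 3 fell with Hoxb1 and SAG, and 2 rose and 1 fell with Hoxb1 alone. In null NMPs the count that fell was 0 without wild-type library 2 or 3 or null library 2, 4 without null library 3, and 3 with no filter or with all 18 libraries in 1 fit. With Hoxb1 alone it was 2 without any 1 library of the groups with SAG or without library 2 with Hoxb1. The share of all genes called was 28.8% in null NMPs, 43.4% with Hoxb1 and SAG and 46.2% with Hoxb1 alone. The BCL2 family counts in null NMPs and with Hoxb1 and SAG were near it. Hrk, a BH3-only protein of neurons, had 24.5, 20.6 and 17.8 CPM in null NMPs, against 8.32, 7.28 and 7.50 CPM in wild type (log2 change 1.45, SE 0.11, adjusted p = 2.53e-09), and 6.90, 6.87 and 7.01 CPM with Hoxb1 and SAG, against 2.05, 3.03 and 3.08 CPM with SAG (log2 change 1.34, SE 0.13, adjusted p = 9.3e-12). Bmf, another BH3-only protein, rose with Hoxb1 in both settings, at 49.8 ± 1.41 CPM with Hoxb1 and SAG and 32.7 ± 1.29 CPM with SAG (log2 change 0.61, SE 0.053, adjusted p = 1.43e-12), and 37.0 ± 3.80 CPM with Hoxb1 and 18.5 ± 1.93 CPM with neither (log2 change 1.01, SE 0.074, adjusted p = 6.59e-15). Bcl2, the anti-apoptotic founder of the family, fell to 47.6 ± 3.14 CPM with Hoxb1, against 78.8 ± 3.69 CPM with neither (log2 change -0.72, SE 0.050, adjusted p = 8.85e-16).

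Of 13 paralogues and partners of the 10 genes, 2 rose and 5 fell in null NMPs, 5 rose and 3 fell with Hoxb1 and SAG, and 8 rose and 3 fell with Hoxb1 alone. Without library 2 or 3 of wild-type NMPs, 2 or 3 fell in null NMPs in place of 5, and without library 3 of wild type 1 rose. Edaradd, an adaptor of the related receptor Edar, had 10.3, 11.1 and 11.6 CPM with Hoxb1 and SAG, against 2.80, 2.16 and 2.50 CPM with SAG (log2 change 2.16, SE 0.11, adjusted p = 2.64e-20), and 76.0, 70.5 and 72.4 CPM with Hoxb1, against 15.3, 12.9 and 12.1 CPM with neither (log2 change 2.45, SE 0.070, adjusted p = 5.53e-29). These were larger changes than that of Eda2r. Of 13 cell cycle kinases, cyclins and related genes, the machinery that p21 restrains, 1 rose and 2 fell in null NMPs, 2 rose and 4 fell with Hoxb1 and SAG, and 4 rose and 5 fell with Hoxb1 alone. With single libraries left out, the count that rose was 0 to 1 in null NMPs and 0 to 2 with Hoxb1 and SAG. For both lists, the shares of all genes called were 28.8%, 43.4% and 46.2% in these comparisons, in the same order. The cell cycle counts in null NMPs and with Hoxb1 and SAG were near them. With Hoxb1 and SAG, Ccnd1, cyclin D1, had 466 ± 9.39 CPM, against 585 ± 7.46 CPM with SAG (log2 change -0.32, SE 0.030, adjusted p = 4.13e-12). With SAG in cells without Hoxb1, 10 of these 13 rose and 3 fell, where 36.5% of all genes were higher and 36.3% lower and the neuron and mesenchyme markers moved as given above. Ccne1, cyclin E1, rose most (61.1 ± 2.72 CPM with SAG and 21.4 ± 2.52 CPM with neither, log2 change 1.51, SE 0.061, adjusted p = 1.58e-23).

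**Figure D4:**
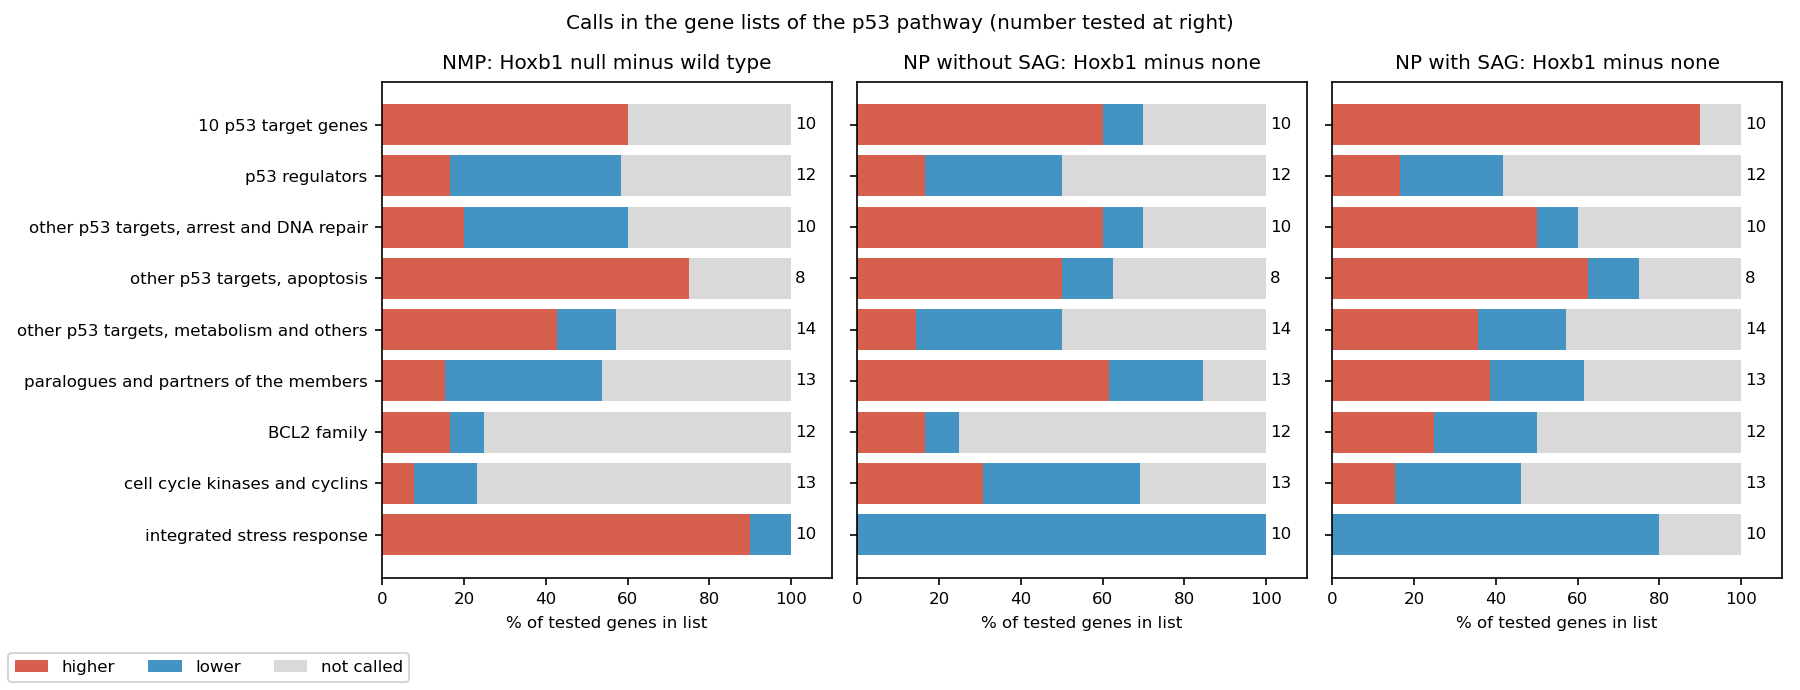
Share of tested genes (horizontal axis, percent) that were higher, lower or not called in each list, for Hoxb1-null minus wild-type NMPs, Hoxb1 minus no Hoxb1 without SAG and Hoxb1 minus no Hoxb1 with SAG, with the number tested at the right of each bar. The bar of the 10 p53 target genes is mainly higher in each panel, and the bar of the integrated stress response is mainly higher in NMPs and wholly or mainly lower in the neural progenitors.

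The genes whose pattern over the 6 group means was most like that of Cdkn1a were Ccdc88c, Slc19a2 and Sntb2, which differed from it by 0.054, 0.056 and 0.061 on the log2 scale as the mean absolute difference after centring. For Mdm2 they were Tmem251, Col27a1 and Cdc42bpg, at 0.065, 0.077 and 0.080. These were taken from 11172 genes with at least 10 CPM in their highest group.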

How the data were processed

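RNA was measured in 18 libraries from mouse embryonic stem cell derivatives, 6 groups of 3. Per the labels, polyadenylated RNA was selected and directional libraries were made with 15 PCR cycles. Per the submitters' processing notes, bcl2fastq 1.8.2, featureCounts 1.4.6 and the mm10 build were used. The deposited table gives, for each Ensembl gene, exon positions, raw counts in 18 columns and a length in bases, the last used here for RPKM. How reads were aligned, against which annotation release and with which strand setting they were counted, the sources used here do not say. Gene symbols matched 35449 of 37224 genes.

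The members and all lists were chosen with earlier results of these data known. The tests used edgeR 4.0.16 in R 4.3.3: filterByExpr by group, TMM factors, quasi-likelihood F-tests with robust estimation, and Benjamini-Hochberg adjustment over all tested genes, called under 0.05. NMPs were fitted alone (6 libraries, 15032 genes), neural progenitors together (12 libraries, 16238 genes), and the cell types with all 18. SE is the log2 change divided by the square root of F. Named genes are the 10 members, Trp53, Mdm4, Hoxb1 and the 3 genes most like Cdkn1a and Mdm2. Others come from up to 3 called genes per list and comparison, those of largest change that reached 1 CPM. Not all of these are given. The test was tried on simulated counts. Alternatives were DESeq2 1.42.0, other scalings and filters, other sample sets, a replicate block and leaving out each library. Correlations of deviations between same-numbered libraries of Hoxb1 and SAG with SAG were 0.218, 0.207 and 0.015. In all other pairs of groups they were at most 0.084. Whether the numbers pair the libraries is not settled by these values, and the main fits used no pairing. Reads carry no molecular identifiers.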

Additional observations from a re-analysis of the deposited data

Results flagged for a closer look

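The effect of Hoxb1 differed between neural progenitors with and without SAG, by the edgeR interaction test over all 16238 genes, for 8 of the 10 genes. As log2 change with SAG minus log2 change without, the differences were 0.47 for Cdkn1a, 0.28 for Mdm2, 0.37 for Eda2r, 0.35 for Plk2, 0.56 for Bbc3 and 0.40 for Phlda3. They were -0.17 for Ccng1 and -0.15 for Trp53inp1. This test passed for 35.5% of all genes, and SAG and the library set cannot be told apart. Groups of 3 libraries are too small for the rule on outlying values used here, which needs at least 4.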

How the results depend on the processing

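Counts of called genes, over all genes and over the 10, stayed within 1.5 times the reported count in 208 of 212 values under the alternatives other than leaving out a library. With Hoxb1 without SAG the count of the 10 genes called lower was 0 with DESeq2, with no filter and with all 18 libraries fitted together, against 1 as reported. When single libraries were left out, this count was 0 to 2. For the difference of the Hoxb1 effects, the count of the 10 genes called lower was 1 with all 18 libraries, against 2, and 2 to 3 when single libraries were left out. The count of the 10 genes called higher in null NMPs was 4 to 6 with single libraries left out, the 4 without library 3 of wild type. With a block for replicate number it was 6, and 9 with Hoxb1 and SAG, as without the block. With that block the single fall on the integrated stress response list in NMPs was not called, although pairing by number was not established. With upper-quartile factors, values that had not passed the test changed sign, Bbc3 in NMPs to 0.0022 and Trp53 with Hoxb1 without SAG to -0.0070. Leaving out single libraries changed the sign of other uncalled values. In NMPs, Bbc3 ranged over -0.090 to 0.050 and Mdm4 over -0.070 to 0.049. With Hoxb1 without SAG, Cdkn1a ranged over -0.0052 to 0.063 and Trp53 over -0.018 to 0.052. With SAG, Phlda3 without Hoxb1 ranged over -0.066 to 0.065, Cdkn1a with Hoxb1 over -0.00083 to 0.028 and Hoxb1 without added Hoxb1 over -0.13 to 1.07. The difference of the effects on Hoxb1 itself ranged over -0.21 to 1.01. Among single genes named in the text or on its lists, 47 values lost and 15 gained a call when a library was left out, of 3084 values, and 14 of 1945 lost one under the other alternatives. Counts on the other gene lists moved by over 1.5 times in 28 of 954 values, and in 74 of 1512 with a library left out. The cause was not tested. The effect of depth was not tested.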

Other observations

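Of the 32 other p53 targets, 10 rose and 14 fell with SAG in cells without Hoxb1, and 10 rose and 14 fell in cells with Hoxb1. These 24 of 32 are near the shares of all genes called, 72.7% and 72.2%. Perp averaged 9.27 ± 0.423 CPM with SAG and 14.5 ± 1.499 CPM with neither (log2 change -0.64, SE 0.091, adjusted p = 5.24e-08). Ephx1 averaged 24.5 ± 0.487 CPM with SAG and 55.4 ± 2.43 CPM with neither (log2 change -1.17, SE 0.053, adjusted p = 1.4e-22), and Sesn2 266 ± 28.0 CPM with SAG and 593 ± 45.4 CPM with neither (log2 change -1.15, SE 0.077, adjusted p = 4.62e-07). Bcl2 averaged 31.9 ± 0.419 CPM with SAG and 78.8 ± 3.69 CPM with neither (log2 change -1.30, SE 0.049, adjusted p = 2.18e-25). Pcna, the sliding clamp of DNA replication, averaged 108 ± 2.49 CPM with SAG and 48.0 ± 2.16 CPM with neither (log2 change 1.17, SE 0.043, adjusted p = 1.72e-25). All 10 genes of the integrated stress response fell with SAG in cells without Hoxb1, Atf5 to 50.5 ± 4.24 CPM with SAG, against 767 ± 80.0 CPM with neither (log2 change -3.92, SE 0.088, adjusted p = 7.4e-11). SAG and the library set cannot be told apart.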
